A study of Homo sapiens with 6 samples.

Results

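The DNAJ co-chaperone genes were taken as every gene symbol made of DNAJ, a class letter (A, B or C), a number and at most 1 further letter, which gave 45 genes among the 18126 symbols measured. They were described in the human cell line 786-O, which derives from a clear cell renal carcinoma (ccRCC), in 3 libraries labelled Control and 3 labelled siTEAD4 (cells transfected with a control or with an siRNA against TEAD4, a transcription factor that recruits YAP to DNA). All 6 libraries come from this line, total RNA was extracted with Trizol, and the libraries followed a BGISEQ-500 protocol. Values are FPKM (fragments normalised to gene length and to the mapped total of a library), so levels can be compared between genes, but read counts and depth are unknown. Inside the tables, the wording "Tead_Inhibitor" stands above the siTEAD4 values and "Vehicle" above those of Control 2 and Control 3. Directions are therefore given by the labels Control and siTEAD4 alone, and the agent used cannot be settled from the tables.

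DNAJ proteins, also called J-domain proteins or Hsp40s, bind unfolded or partly folded clients and pass them to Hsp70. Their J domain stimulates the ATPase of Hsp70, which then closes on the client, and a nucleotide exchange factor resets the cycle. Class A and class B proteins carry a glycine-rich stretch beside the J domain and include the general folding co-chaperones, while class C proteins share only the J domain and bring Hsp70 to particular places such as the ribosome, a synaptic vesicle or the mitochondrial import motor. Each compartment has its own Hsp70, encoded by HSPA8 and the heat-inducible HSPA1A, HSPA1B and HSPA6 in the cytosol, HSPA5 (BiP) in the endoplasmic reticulum (ER) and HSPA9 (mortalin) in mitochondria.

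The targeted gene was checked first. TEAD4 ranged from 11.28 to 16.99 FPKM over the Control libraries and from 7.52 to 8.92 FPKM over the siTEAD4 libraries. The siTEAD4 libraries held 59.1% of the Control mean, and a two-sided exact permutation test gave p = 0.1, the smallest that 3 against 3 libraries can give. The Control libraries varied more among themselves than the siTEAD4 libraries. The median absolute log2 difference of a tested gene from the other 2 libraries of its group was 0.230 in Control 2, 0.193 in Control 1 and 0.0850 in Control 3, against 0.0546 to 0.0719 in siTEAD4. Of 8 renal epithelial and ccRCC markers, all passed the expression filter, with summed levels of 4030 to 4812 FPKM in Control and 3744 to 3894 FPKM in siTEAD4, most of it from VIM. Among these 8, CDH6 (-2.35), CD70 (-1.07) and PAX2 (-0.76) fell, EPAS1 (0.32) rose and 4 did not pass (log2 fold changes, limma). Of 8 measured markers of other cell types, 7 stayed under 1 FPKM in every library, and their summed level of 27.1 to 38.5 FPKM in Control and 19.7 to 21.9 FPKM in siTEAD4 came almost wholly from CD68, a lysosomal protein gene that passed the test (log2 fold change -0.62). In bulk RNA, fewer cells of a type and less RNA per cell cannot be told apart.

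The promoters shown are those of 4 cytosolic members that rose, chosen to set windows with a heat shock element beside one without. Each runs from 250 bases before to 50 bases after an annotated start (RefSeq, GRCh38.p14), 5′ to 3′ on the gene's strand. Capitals mark matches to the core of the heat shock element, GAANNTTC (a palindrome, so both strands are covered), and its extension, in which a further GAA follows the core after 2 bases of any kind (searched on both strands). The DNAJB1 window (chr19:14518348-14518647, minus strand) is the middle of 3 annotated starts of that gene, the DNAJA1 window is chr9:33025023-33025322 (plus strand), and the DNAJB6 window is chr7:157336754-157337053 (plus strand). DNAJB4 (chr1:77978925-77979224, plus strand) is shown because it holds no match, and the window of DNAJA2, which also rose and holds none, is not printed.
DNAJB1: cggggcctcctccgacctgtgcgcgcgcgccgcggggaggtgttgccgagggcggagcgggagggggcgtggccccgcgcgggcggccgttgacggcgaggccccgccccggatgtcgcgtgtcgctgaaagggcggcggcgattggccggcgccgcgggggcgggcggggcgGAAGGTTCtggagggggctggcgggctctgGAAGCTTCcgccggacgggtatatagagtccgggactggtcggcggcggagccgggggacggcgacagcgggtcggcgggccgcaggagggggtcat
DNAJA1: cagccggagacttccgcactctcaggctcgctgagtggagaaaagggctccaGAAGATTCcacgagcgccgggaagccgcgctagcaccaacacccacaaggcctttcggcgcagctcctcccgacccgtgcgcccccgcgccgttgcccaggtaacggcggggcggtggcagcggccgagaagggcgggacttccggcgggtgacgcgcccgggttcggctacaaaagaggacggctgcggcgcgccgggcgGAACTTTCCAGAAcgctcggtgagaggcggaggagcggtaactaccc
DNAJB6: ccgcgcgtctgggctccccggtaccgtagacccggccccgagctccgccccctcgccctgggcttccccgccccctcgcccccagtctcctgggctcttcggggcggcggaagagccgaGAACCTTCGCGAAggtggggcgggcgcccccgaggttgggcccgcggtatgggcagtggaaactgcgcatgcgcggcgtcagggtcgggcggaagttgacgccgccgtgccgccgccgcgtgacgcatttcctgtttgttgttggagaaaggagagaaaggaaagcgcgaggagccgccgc
DNAJB4: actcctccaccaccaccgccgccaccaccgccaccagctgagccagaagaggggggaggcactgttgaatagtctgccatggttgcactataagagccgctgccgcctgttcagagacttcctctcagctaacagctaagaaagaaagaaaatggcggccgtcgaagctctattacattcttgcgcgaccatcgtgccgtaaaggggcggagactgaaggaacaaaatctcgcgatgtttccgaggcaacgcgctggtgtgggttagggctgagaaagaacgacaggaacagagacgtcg

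Windows were found for 40 of the 45 genes, 52 windows in all. The core stood in 7 of these windows (13.5%), belonging to DNAJA1, DNAJA4, DNAJB1, DNAJB6, DNAJB7 and DNAJC6, and in 6.77% of 35116 windows of all genes. The longer motif stood in 2 windows (3.85%), those of DNAJA1 and DNAJB6, against 0.490% of all windows. The ER stress element, CCAAT and CCACG with 9 bases of any kind between them, stood in none of the 52 windows and in 0.0769% of all, and the UPR element TGACGTGG stood in that of DNAJC10 alone. The antioxidant response element TGACNNNGC, which overlaps the UPR match in DNAJC10, stood in 5 windows (9.62%, against 13.3% of all) and the TEAD motif GGAATG in 2 (3.85%, against 14%), both searched on both strands. Among the genes that rose, the core stood only in windows of DNAJA1, DNAJB1 and DNAJB6, and DNAJC24 had no window. DNAJA4, DNAJB7 and DNAJC6 were too low to be tested for a change. A match is a run of letters, not a site known to be bound.

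At least 1 FPKM in at least 3 libraries was reached by 37 of the 45 genes, and these were tested with limma on log2(FPKM + 1). Benjamini-Hochberg adjusted p-values over all 11411 tested genes were called under 0.05. Of the 37, 14 rose and 4 fell in siTEAD4. The called share, 48.6%, was near the 44.9% of all tested genes, and the median log2 fold change was 0.07 against 0.09 for all tested genes. By direction, 37.8% of the tested DNAJ genes rose, against 26.1% of all tested genes, and 10.8% fell, against 18.8%. With median scaling (all libraries brought to the same median), or with TMM-like scaling, 11 rose and 6 fell. Of all 11411 tested genes, 2172 rose and 2455 fell with median scaling (40.5% called). With TMM-like scaling, 2020 of them rose and 2567 fell (40.2% called). Without Control 2, the library that stood farthest from its group, 15 rose and 6 fell, and the called share of all tested genes was 58.2% in that fit. The groups of libraries did not overlap in 23 of the 37 (62.2%), against 57.7% of all tested genes.

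All 3 tested class A genes rose, as did 5 of 9 tested class B genes (55.6%), of which none fell by this test. In class C, 6 of 25 rose (24%) and 4 fell (16%), near the 26.1% and 18.8% of all tested genes. The median log2 fold changes were 0.56, 0.34 and -0.08 for classes A, B and C, beside 0.09 for all tested genes. No test was made between the classes. The summed level of all 45 genes was 860 to 872 FPKM in Control and 1072 to 1088 FPKM in siTEAD4, and most of that sum came from a few abundant members.

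**Figure D1:**
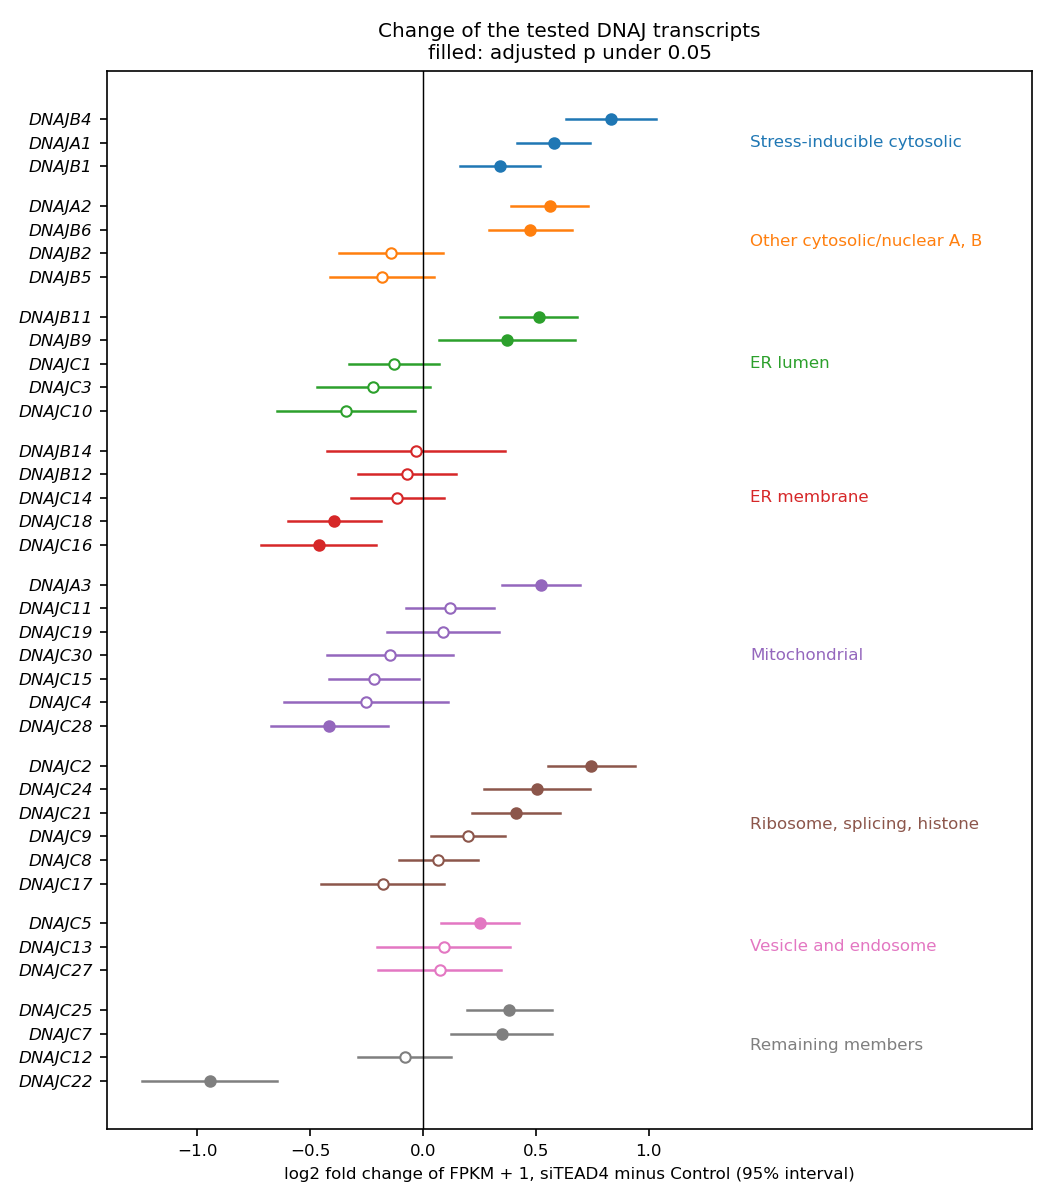
Log2 fold change of FPKM + 1 (siTEAD4 minus Control) with its 95% interval from limma for the 37 tested DNAJ genes, coloured and grouped by compartment or role; filled points passed an adjusted p of 0.05. DNAJB4 (0.83) and DNAJC2 (0.75) lie farthest to the right and DNAJC22 (-0.95) farthest to the left.

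In Control, DNAJA1 had the highest level, 145 ± 2.46 FPKM (SD, n = 3), above DNAJC8 at 86.4 ± 3.93 FPKM. DNAJB6 (68.6 ± 4.63 FPKM), DNAJB11 (67.7 ± 3.16 FPKM) and DNAJB1 (59.8 ± 4.24 FPKM) came next. DNAJB6 and DNAJB11 overlapped between libraries, as did DNAJB6 and DNAJB1, while DNAJB11 lay above DNAJB1 in every comparison of Control libraries. DNAJC9 followed at 45.2 ± 1.35 FPKM. In siTEAD4, DNAJA1 stayed first, and DNAJB11 was second (97.0 ± 3.32 FPKM), overlapping DNAJB6 (95.6 ± 3.91 FPKM) and DNAJC8 (90.6 ± 4.55 FPKM).

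The stress-inducible cytosolic genes rose. Of the 4 listed genes, which are induced by heat shock factor HSF1 in many cells, 3 were tested. All 3 rose, beside 26.1% of all tested genes. Their median log2 fold change was 0.58. DNAJA1, a class A co-chaperone of HSPA8 (chromosome 9, 33025211 to 33039907, plus strand; all positions are on GRCh38), measured 146.64, 142.30 and 146.47 FPKM in the Control libraries 1 to 3, against 217.69, 220.02 and 214.04 FPKM in the siTEAD4 libraries 1 to 3. Values of other genes follow the same order of libraries. Its groups were far apart compared with the spread inside each, with a log2 fold change of 0.58 ± 0.0704 (SE; limma adjusted p = 0.000312). DNAJB4, a class B member also known as HLJ1 (chromosome 1, 77979175 to 78017964, plus strand), was at 13.51, 11.94 and 13.85 FPKM in Control and at 24.45, 22.76 and 25.04 FPKM in siTEAD4. Every siTEAD4 library lay above every Control library, and the change was the largest rise among the DNAJ genes, 0.83 ± 0.0876 (adjusted p = 0.00014). DNAJB1, the classical heat-inducible Hsp40 (chromosome 19, 14514770 to 14529770, minus strand), was at 55.68, 64.14 and 59.52 FPKM in Control and at 75.13, 75.58 and 77.07 FPKM in siTEAD4. It rose by the least of the 3, 0.34 ± 0.0787 on the log2 scale (adjusted p = 0.00782), and its groups did not overlap. These 3 calls held in every alternative fit, with adjusted p-values of at most 0.0421, but DNAJB1 lay under a required log2 change of 0.5. The ratio of DNAJA1 to DNAJB1, which does not depend on scaling between libraries, was 2.22 to 2.63 in Control and 2.78 to 2.91 in siTEAD4. DNAJA4, the other listed gene, lay between 0.02 and 0.10 FPKM in all 6 libraries and was not tested, although 1 of its windows holds 2 cores of the heat shock element.

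**Figure D2:**
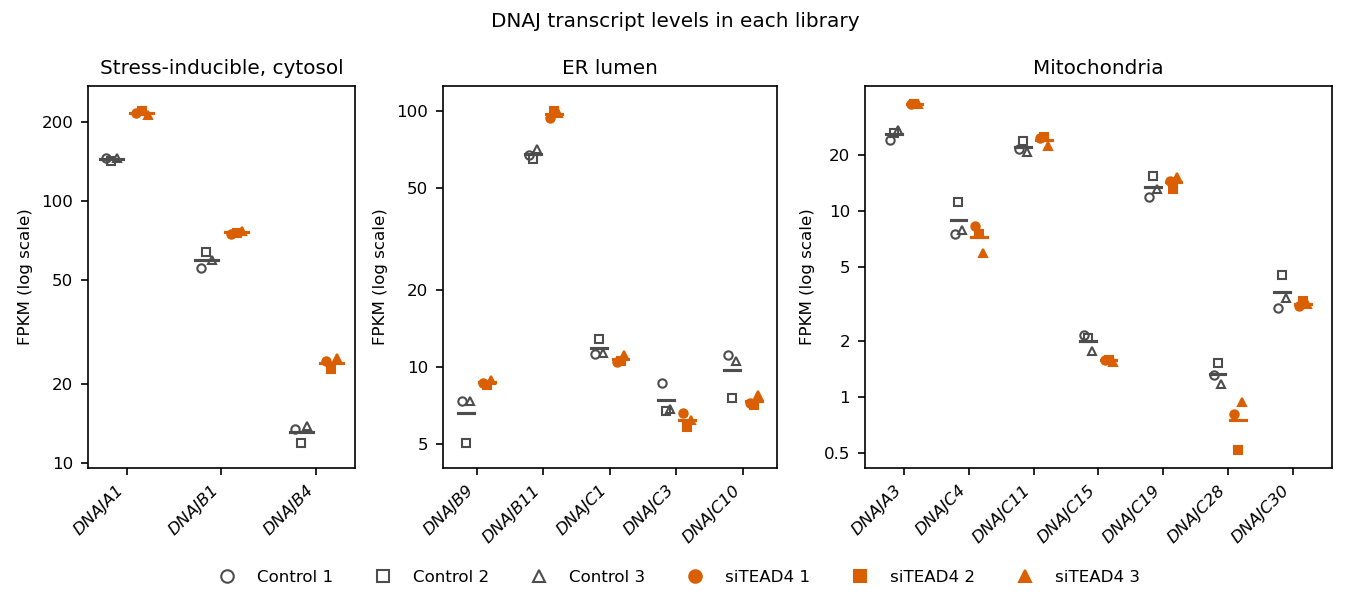
FPKM (log scale) of the tested stress-inducible cytosolic, ER lumen and mitochondrial DNAJ genes in each library, with the symbol giving the library number and the bar the group mean (n = 3). The siTEAD4 symbols of DNAJA1, DNAJB1, DNAJB4, DNAJB9, DNAJB11 and DNAJA3 all lie above the Control symbols.

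The other cytosolic and nuclear class A and B genes divided into a pair that rose and a pair that did not pass. The called share, 50%, was near the 44.9% of all tested genes. DNAJA2, a constitutive class A partner of HSPA8 (chromosome 16, 46955362 to 46973788, minus strand), stood at 24.84, 22.68 and 24.17 FPKM in Control and at 35.23, 35.16 and 36.83 FPKM in siTEAD4. DNAJB6, which keeps polyglutamine proteins from aggregating (chromosome 7, 157335381 to 157417439, plus strand), stood at 70.14, 63.36 and 72.21 FPKM in Control and at 91.26, 96.70 and 98.84 FPKM in siTEAD4. Neither gene had overlapping groups, and their log2 fold changes were 0.56 ± 0.0754 (adjusted p = 0.000516) and 0.47 ± 0.0811 (adjusted p = 0.00177). DNAJB2, which directs clients to the proteasome and is best known from neurons, was at 42.3 ± 5.48 and 38.2 ± 1.96 FPKM (SD, n = 3) and did not pass (-0.14, 95% interval -0.37 to 0.09). DNAJB5 did not pass either (-0.18, 95% interval -0.41 to 0.05), although its groups did not overlap. The remaining 4 genes of this list were not tested. DNAJB8, a relative of DNAJB6, was listed at 0.03 FPKM in siTEAD4 1 and at 0 in the other libraries. DNAJB7 and DNAJB13, an axonemal protein gene, stayed at or under 0.39 FPKM, and DNAJB3, which GENCODE gives as a transcribed processed pseudogene, stayed at or under 0.58 FPKM.

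The genes of the ER lumen did not move together. DNAJB11 and DNAJB9 rose, which is 40% of the list, against 26.1% of all tested genes. DNAJC1, DNAJC3 and DNAJC10 had negative values that did not pass, and the list median was -0.13. DNAJB11 encodes ERdj3, an abundant partner of BiP that binds nascent clients (chromosome 3, 186567403 to 186585800, plus strand). It was at 66.99, 64.99 and 71.19 FPKM in Control and at 93.45, 99.99 and 97.67 FPKM in siTEAD4. The groups were well apart, with a log2 fold change of 0.51 ± 0.0750 (adjusted p = 0.000794). DNAJB9 encodes ERdj4, an unfolded protein response target that helps BiP to hold the sensor IRE1 inactive (chromosome 7, 108569568 to 108574850, plus strand). It was at 7.35, 5.02 and 7.33 FPKM in Control and at 8.67, 8.50 and 8.88 FPKM in siTEAD4. Control 2 was low and the siTEAD4 libraries were close together, and the change passed narrowly (0.37 ± 0.132, adjusted p = 0.0466). Without Control 2 the log2 fold change was 0.22, the smallest of the fits without 1 library, although the call was kept. The call was lost when Control 3 (adjusted p = 0.0575) or any siTEAD4 library (0.106 to 0.132) was left out, with median scaling (0.0769), with TMM-like scaling (0.107) and with no filter on low values (0.0924).

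DNAJC10 encodes ERdj5, which reduces disulfides of proteins bound for degradation. It stood at 11.09, 7.51 and 10.52 FPKM in Control and at 7.18, 7.10 and 7.78 FPKM in siTEAD4, and Control 2 lay among the siTEAD4 libraries. It did not pass (-0.34 ± 0.134, adjusted p = 0.0663), but without Control 2 it fell (-0.50, adjusted p = 0.000279), as it did with median scaling (-0.41, 0.0302), TMM-like scaling (-0.42, 0.0325) and quantile normalization (-0.40, 0.0247), and with a replicate block (-0.34, 0.0370). DNAJC3 encodes p58IPK, a luminal protein that holds misfolded clients. It was at 8.65, 6.73 and 6.85 FPKM in Control and at 6.61, 5.79 and 6.18 FPKM in siTEAD4. Its groups lay close to each other without overlapping, and it passed without Control 2 (-0.28, adjusted p = 0.0344) but not with all libraries (-0.22, adjusted p = 0.133). DNAJC1, a membrane-spanning protein whose J domain faces the lumen near the translocon, was at 11.16, 12.86 and 11.32 FPKM in Control and at 10.39, 10.53 and 11.09 FPKM in siTEAD4. It did not pass, with a 95% interval of -0.33 to 0.07.

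Among the 5 ER membrane genes, limma called 2 lower (40%, against 18.8% of all tested genes) and none higher (against 26.1%). The list median was -0.11. DNAJC16, also called ERdj8 (chromosome 1, 15526813 to 15592379, plus strand), was at 5.13, 3.80 and 3.99 FPKM in Control and at 2.62, 2.88 and 2.99 FPKM in siTEAD4. DNAJC18, which together with DNAJB12 and DNAJB14 serves the exit of a polyomavirus from the ER (chromosome 5, 139408588 to 139444491, minus strand), was at 1.68, 1.47 and 1.78 FPKM in Control and at 0.93, 0.97 and 1.14 FPKM in siTEAD4. Both were lower in every siTEAD4 library, with log2 fold changes of -0.46 ± 0.112 (adjusted p = 0.0101) and -0.39 ± 0.0914 (adjusted p = 0.00826). The call of DNAJC16 ended without siTEAD4 1 (adjusted p = 0.0501), and the low level of DNAJC18 means that its fold change is understated. DNAJB12 and DNAJB14, which take part in the degradation of misfolded membrane proteins, did not pass (-0.07 and -0.03). DNAJB14 was at 7.19 FPKM in Control 2 and at 11.95 and 12.47 FPKM in the other Control libraries, and without Control 2 it fell (-0.26, adjusted p = 0.00713). DNAJC14 did not pass (-0.11, 95% interval -0.32 to 0.09).

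Of the 7 mitochondrial genes, DNAJA3 rose, DNAJC28 fell and 5 did not pass. The called share, 28.6%, lay under the 44.9% of all tested genes, and the list median was -0.15. Without Control 2 the median was 0.08, but DNAJC28 was not tested in that fit, so the medians cover different genes. DNAJA3, also called TID1, is the class A co-chaperone of HSPA9 in the matrix (chromosome 16, 4425805 to 4456775, plus strand). It was at 24.18, 26.10 and 27.07 FPKM in Control and at 37.52, 37.47 and 37.53 FPKM in siTEAD4. The siTEAD4 libraries were nearly equal and above every Control library, with a log2 fold change of 0.53 ± 0.0761 (adjusted p = 0.000759). DNAJC28 was at 1.31, 1.53 and 1.17 FPKM in Control and at 0.81, 0.52 and 0.94 FPKM in siTEAD4. It was lower in every siTEAD4 library (-0.42 ± 0.114, adjusted p = 0.0174), but near the filter. DNAJC28 reached 1 FPKM in the Control libraries alone, so the filter admitted it only through the group where it was high. Its fall, and its place in the counts of falls, thus depend in part on the filter. It was not tested when any 1 Control library was left out, and its call ended without siTEAD4 2 (adjusted p = 0.0717) and after quantile normalization (0.0714).

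The import motor genes did not follow DNAJA3. DNAJC19, which encodes a J protein of the inner membrane import motor, stood at 11.82, 15.32 and 13.09 FPKM in Control and at 14.52, 13.07 and 15.27 FPKM in siTEAD4. These groups overlapped (0.09, 95% interval -0.16 to 0.34). DNAJC15, its relative at the same motor, was at 2.16, 2.07 and 1.77 FPKM in Control and at 1.59, 1.59 and 1.55 FPKM in siTEAD4. It was lower in every siTEAD4 library without passing (-0.22, adjusted p = 0.0746), and it passed with median scaling (-0.26, 0.0428) and TMM-like scaling (-0.28, 0.0366). DNAJC11, which is tied to the cristae-organizing complex of the inner membrane, was at 21.60, 23.67 and 20.80 FPKM in Control and at 24.72, 24.86 and 22.46 FPKM in siTEAD4. DNAJC30, which serves the upkeep of respiratory complex I, was at 3.03, 4.53 and 3.42 FPKM in Control and at 3.07, 3.27 and 3.18 FPKM in siTEAD4. DNAJC4 was at 7.54, 11.23 and 7.91 FPKM in Control and at 8.30, 7.54 and 5.93 FPKM in siTEAD4. In these 3 genes the groups overlapped and none passed the limma test (adjusted p of 0.224 to 0.353).

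Among the class C genes that act at the ribosome, the spliceosome and histones, 3 of 6 rose and none fell by limma. Of all tested genes, 26.1% rose and 18.8% fell. The list median was 0.31. DNAJC2, also called MPP11 or ZRF1, forms the ribosome-associated complex with the Hsp70 of HSPA14 (chromosome 7, 103312474 to 103344873, minus strand). It was at 27.26, 24.80 and 23.02 FPKM in Control and at 44.49, 41.84 and 41.45 FPKM in siTEAD4. This was the second largest rise of the family, 0.75 ± 0.0857 (adjusted p = 0.000229), with the groups far apart. DNAJC24, also called DPH4, takes part in making diphthamide on elongation factor eEF2 (chromosome 11, 31369840 to 31431849, plus strand). It was at 6.28, 5.23 and 6.72 FPKM in Control and at 9.51, 8.62 and 8.90 FPKM in siTEAD4. DNAJC21, which serves the maturation of the large ribosomal subunit (chromosome 5, 34929559 to 34958964, plus strand), was at 14.73, 13.10 and 12.54 FPKM in Control and at 17.69, 18.67 and 18.27 FPKM in siTEAD4. All siTEAD4 libraries exceeded all Control libraries for both genes, with log2 fold changes of 0.51 ± 0.103 (adjusted p = 0.00442) and 0.41 ± 0.0864 (adjusted p = 0.00497). The histone co-chaperone gene DNAJC9 just missed the threshold (0.20, adjusted p = 0.0503). It passed without Control 2 (0.0114), with no low-value filter (0.0382), with a filter of 5 FPKM (0.0472) and with pseudocount 5 (0.0486). The other fits left it uncalled, among them median scaling (0.13, adjusted p = 0.222), TMM-like scaling (0.11, 0.259) and a replicate block (0.105). The splicing genes DNAJC8 and DNAJC17 did not pass (0.07 and -0.18), and the value of DNAJC8 was below 0 with median scaling and with TMM-like scaling.

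Among the vesicle and endosome genes, DNAJC5, which encodes the cysteine string protein of secretory vesicles, had means of 18.3 ± 0.365 FPKM (Control) and 22.0 ± 0.917 FPKM (siTEAD4; SD, n = 3). It rose (0.25 ± 0.0757, adjusted p = 0.0247), but the call ended in 8 alternatives, among them the fits that left out Control 3 or one of the siTEAD4 libraries (adjusted p of 0.0688 to 0.131), the 3 rescalings (0.0732 to 0.112) and the fit with a replicate block (0.0572). The endosomal gene DNAJC13, also called RME-8, and DNAJC27, which carries a Rab-like GTPase domain, did not pass (0.09 and 0.07), and both values were below 0 without Control 2 (-0.05 and -0.06). DNAJC6, which encodes the neuronal clathrin-uncoating protein auxilin, reached 0.32 to 0.79 FPKM and was not tested. DNAJC5G stayed at or under 0.17 FPKM, and DNAJC5B was listed at 0 in every library.

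The largest change in the whole family was the fall of DNAJC22, a membrane protein gene whose Drosophila relative acts in endocytosis. DNAJC22 (chromosome 12, 49346917 to 49357546, plus strand) was at 14.62, 11.96 and 13.65 FPKM in Control and at 5.60, 8.01 and 5.98 FPKM in siTEAD4. The siTEAD4 libraries held 48.7% of the Control mean and none reached a Control library, with a log2 fold change of -0.95 ± 0.132 (adjusted p = 0.000629) that was called in every alternative. DNAJC25 (chromosome 9, 111631352 to 111654351, plus strand) was at 9.94, 10.66 and 11.25 FPKM in Control and at 13.99, 14.57 and 13.86 FPKM in siTEAD4. DNAJC7, which binds both Hsp70 and Hsp90 (chromosome 17, 41976433 to 42021376, minus strand), was at 36.71, 43.87 and 35.20 FPKM in Control and at 50.99, 50.27 and 46.39 FPKM in siTEAD4. Both rose without overlap of the groups, by 0.38 ± 0.0826 (adjusted p = 0.00569) and 0.35 ± 0.0979 (adjusted p = 0.0192). The call of DNAJC7 ended without Control 3, siTEAD4 1 or siTEAD4 2 (adjusted p of 0.0772 to 0.0830), with median scaling (0.0700) and with TMM-like scaling (0.0673). DNAJC12, which binds phenylalanine hydroxylase, was at 1.06 to 1.41 FPKM over all libraries and did not pass (-0.08).

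Exons of 24 of the 45 genes share bases with another annotated gene, 9 of these among the 18 called. The treatment of strand and of shared reads is not given in the sources used here, so the split is uncertain. The overlapping partners include TECR for DNAJB1, TBCCD1 for DNAJB11, THAP5 and PNPLA8 for DNAJB9, PMPCB for DNAJC2, and CNP and NKIRAS2 for DNAJC7, all on the other strand. On the same strand, DNAJB4 shares exonic bases with GIPC2, DNAJB11 with AC068631.2, DNAJC18 with AC142391.1 and DNAJC25 with the readthrough gene DNAJC25-GNG10. DNAJC25-GNG10 was listed at 0.21 FPKM in Control 1 and at 0 in the other libraries.

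The Hsp70 genes, the partners of the DNAJ proteins, rose in 7 of 10 tested cases (70%, against 26.1% of all tested genes). They fell in 2 (20%, near the 18.8% of all tested genes). Their median log2 fold change was 0.61, beside 0.09 for all tested genes. HSPA8, the constitutive cytosolic Hsp70, was at 820.56, 813.50 and 718.25 FPKM in Control and at 1661.57, 1593.53 and 1666.39 FPKM in siTEAD4 (1.07). HSPA1B, a heat-inducible Hsp70, was at 46.58, 50.96 and 47.92 FPKM in Control and at 170.14, 165.37 and 158.88 FPKM in siTEAD4 (1.74). Both changes were several times the spread inside the groups, although HSPA1B shares most of its sequence with HSPA1A (0.75) and the split of their reads is uncertain. HSPA6, a strictly stress-inducible Hsp70, was at 0.08, 0.19 and 0.19 FPKM in Control and at 4.48, 4.31 and 4.04 FPKM in siTEAD4 (2.19). HSPA9 was at 67.89, 60.26 and 63.63 FPKM in Control and at 112.42, 112.09 and 119.85 FPKM in siTEAD4 (0.84). In both, the 2 groups were widely separated. HSPA6 and HSPA1A reached 1 FPKM in the siTEAD4 libraries alone, so the filter admitted them only through the group where they were high. Their rises, and the list count and median that include them, thus depend in part on the filter. HSPA14 (0.46) and HSPA5 (0.43) also rose, and HSPA2 (-0.29) and HSPA12A (-0.24) fell. The call of HSPA2 ended without Control 1, Control 3, siTEAD4 2 or siTEAD4 3 (adjusted p up to 0.137), and that of HSPA12A when any library other than Control 2 was left out (up to 0.139) or with a replicate block (0.0707). HSPA13 did not pass (-0.40, adjusted p = 0.0933), except without Control 2 (-0.64, adjusted p = 2.46e-05) and with a replicate block (0.0363).

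**Figure D3:**
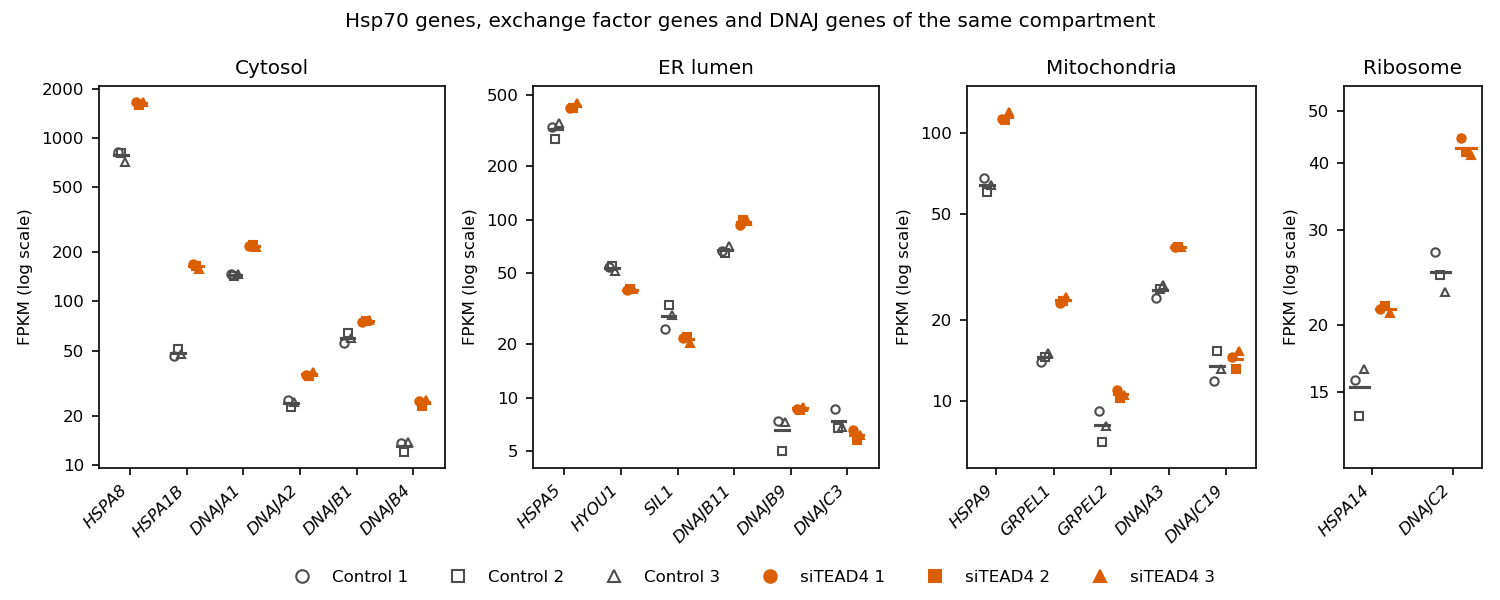
FPKM (log scale) in each library of Hsp70 genes, exchange factor genes and DNAJ genes that act in the same compartment, with the symbol giving the library number and the bar the group mean (n = 3). HSPA8, HSPA1B, HSPA9, GRPEL1 and HSPA14 lie higher in all siTEAD4 libraries, and the ER exchange factor genes HYOU1 and SIL1 lie lower.

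Of the 13 genes of nucleotide exchange factors, 8 rose (61.5%, against 26.1% of all tested genes) and 2 fell (15.4%, against 18.8%). The list median was 0.40. HSPH1, the cytosolic Hsp110 that works with DNAJB1 in dissolving aggregates, was at 49.43, 33.08 and 42.52 FPKM in Control and at 81.89, 79.84 and 82.74 FPKM in siTEAD4 (0.97). BAG3, which links Hsp70 to selective autophagy, was at 17.12, 19.81 and 17.84 FPKM in Control and at 33.11, 33.38 and 33.25 FPKM in siTEAD4 (0.83). The groups were widely separated in both. GRPEL1, the mitochondrial exchange factor of HSPA9, was at 13.89, 14.56 and 15.10 FPKM in Control and at 23.24, 23.60 and 24.43 FPKM in siTEAD4 (0.67). BAG2 was at 20.45, 20.26 and 19.82 FPKM in Control and at 30.23, 30.85 and 31.42 FPKM in siTEAD4 (0.59). The 2 that fell, HYOU1 (-0.39) and SIL1 (-0.41), encode the exchange factors of BiP in the ER lumen, where DNAJB11 rose. SIL1 lost its call when Control 3 or any siTEAD4 library was left out (adjusted p of 0.0506 to 0.0730). Among the rises, GRPEL2 lost its call in the same fits and with TMM-like scaling (0.0613 to 0.0919). BAG4 lost its call without Control 3, siTEAD4 1 or siTEAD4 3 (0.0586 to 0.0741).

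Among the J-domain genes with other names, GAK (0.33), the ubiquitous relative of auxilin, rose, while SEC63 (-0.47), which draws BiP to the ER translocon, fell. The call of GAK ended without Control 3, siTEAD4 1 or siTEAD4 2 and with median or TMM-like scaling (adjusted p of 0.0671 to 0.0910), and that of SEC63 without Control 3 (0.0551). HSCB, which serves iron-sulfur cluster assembly in mitochondria, did not pass (0.04). Among 7 tested regulators of the heat shock and unfolded protein responses, DDIT3 (0.73) and XBP1 (0.24) rose. ATF6 (-0.50) and EIF2AK3 (-0.66), which encodes PERK, fell. Each direction made up 28.6%, against 26.1% higher and 18.8% lower among all tested genes. The heat shock factor genes HSF1 (0.20, adjusted p = 0.208) and HSF2 (0.15, adjusted p = 0.313) did not pass with all libraries, but HSF1 passed without Control 2 (0.33, adjusted p = 0.00609) and HSF2 without Control 1 (0.26, adjusted p = 0.0380). The call of XBP1 ended without Control 3 or one of the siTEAD4 libraries, with the 3 rescalings and with a replicate block (adjusted p of 0.0539 to 0.116).

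Levels of an Hsp70 gene relative to a DNAJ gene were compared as ratios of FPKM within a library. HSPA8 over DNAJB1 was 14.7, 12.7 and 12.1 in Control and 22.1, 21.1 and 21.6 in siTEAD4. HSPA8 over DNAJA1 was 4.90 to 5.72 in Control and 7.24 to 7.79 in siTEAD4, and HSPA8 over DNAJA2 went from 29.7 to 35.9 in Control up to 45.2 to 47.2 in siTEAD4. HSPA1B over DNAJB1 was 0.837, 0.795 and 0.805 in Control and 2.26, 2.19 and 2.06 in siTEAD4. These 4 cytosolic ratios were higher in every siTEAD4 library than in any Control library. HSPA9 over DNAJA3 was 2.31 to 2.81 in Control and 2.99 to 3.19 in siTEAD4. HSPA5 over DNAJB11 overlapped between the groups, at 4.38 to 4.96 and 4.21 to 4.61, and so did HSPA5 over DNAJB9, at 45.3 to 56.7 and 49.1 to 50.7. HSPA14 over DNAJC2 moved the other way, from 0.546 to 0.718 in Control to 0.481 to 0.519 in siTEAD4. Two-sided exact permutation tests gave p = 0.1 for the 7 of 9 ratios without overlap, the smallest possible (0.129 after Benjamini-Hochberg adjustment over 9), p = 0.3 for HSPA5 over DNAJB11 (adjusted 0.338) and p = 1 for HSPA5 over DNAJB9, so none could pass 0.05.

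**Figure D4:**
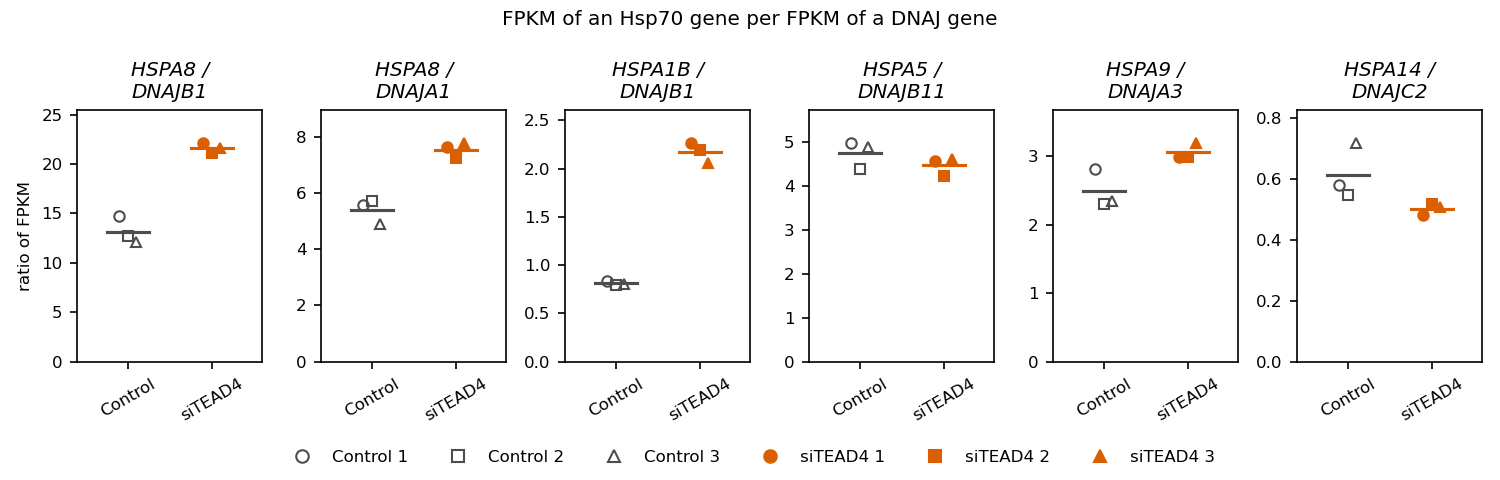
Ratio of the FPKM of an Hsp70 gene to that of a DNAJ gene in each library (linear axes from 0), with the symbol giving the library number and the bar the group mean (n = 3). The 3 cytosolic ratios and HSPA9 over DNAJA3 are higher in every siTEAD4 library, HSPA14 over DNAJC2 is lower, and HSPA5 over DNAJB11 overlaps.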

How the data were processed

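RNA-seq of 3 Control and 3 siTEAD4 libraries was analysed from 1 deposited table per library, with groups and library numbers from the titles. The authors deposited FPKM with 2 decimals, a unit read from the file headers; the Control 1 header gives no unit and was taken as FPKM because symbols, decimals and range match. The submitters' processing notes name GRCh38; the sources used here give no aligner, counting tool, annotation or strand handling. Depth is unknown: of 3569 ratios among low values in 856 genes, 14.5% lay within 0.1 of a whole number, below the 20% of an even spread, and whole reads were therefore not recovered. No library was a copy of another, as equal values made up at most 0.684% of tested genes in a pair.

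Genes reaching 1 FPKM in 3 or more libraries entered a limma fit (version 3.58.1, R 4.3.3; eBayes with a mean-variance trend) on log2(FPKM + 1), with group as the only term and Benjamini-Hochberg adjustment over all tested genes. Fold changes on this scale understate the change of low genes. The fit was tested on simulated data. The labels do not tie libraries to separate cultures, and the p-values may thus rest on technical spread alone. The DNAJ genes, their compartment lists and the partner lists were chosen with earlier results of these data known. All 6 values were given for tested stress-inducible, ER lumen and mitochondrial genes, for the 10 other called DNAJ genes with the largest changes, and for up to 4 called genes of each partner list with the largest changes; a few others were named after their values were seen. A gene of the list of J-domain genes with other names is not reported here. Gene coordinates came from GENCODE release 29. Alternatives covered the libraries (each left out in turn, or their number as a replicate block), the scaling (to the same median, TMM-like, quantile), the filter (none, or 5 FPKM), the pseudocount (0.1, 5), the moderation (no trend, robust) and the threshold (adjusted p of 0.01, or a log2 change of 0.5).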

Additional observations from a re-analysis of the deposited data

How the results depend on the processing

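All 18 called DNAJ genes kept their direction in every fit run, and 13 kept their call in all of them; 5 of the 19 uncalled genes passed in some fit. Without 1 library, 11 to 15 DNAJ genes rose and 3 to 6 fell, the ER lumen counts were 1 to 2 higher and 0 to 2 lower, and the mitochondrial count of falls was 0 to 1. Requiring a log2 change of 0.5 left 7 higher and 1 lower, an adjusted p of 0.01 left 2 lower, and a filter of 5 FPKM 1 lower, since fewer genes were then tested. The ER lumen had 1 higher with median scaling, TMM-like scaling, no low-value filter, an adjusted p of 0.01 or a log2 change of 0.5, and 1 lower with median scaling, TMM-like scaling or quantile normalization. The mitochondrial genes had 2 lower with median scaling or TMM-like scaling, and 0 lower after quantile normalization, a filter of 5 FPKM, an adjusted p of 0.01 or a log2 change of 0.5. Apart from the stricter thresholds and filter, the cause was not tested. Higher genes made up 58.2% of all calls, 46.9% with median scaling and 44.0% with TMM-like scaling; the median log2 fold change of all tested genes, 0.09, was then 0.02 and 0.01.

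Same-numbered libraries of the 2 groups deviated together with correlations of -0.16, 0.27 and 0.09. Of the 6 libraries, 3 correlated best with their own number. Pairing by number was thus not shown, but with 3 libraries per group these values cannot exclude it. With a replicate block 13 DNAJ genes rose and 5 fell, and the ER lumen had 1 lower.

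Signs changed only in genes that did not pass. Without 1 library, DNAJB14 ranged from -0.26 to 0.097, DNAJB12 from -0.13 to 0.021, DNAJC27 from -0.057 to 0.15, DNAJC13 from -0.052 to 0.22, HSPA4L from -0.16 to 0.092, BAG5 from -0.038 to 0.23, HSPBP1 from -0.067 to 0.23, HSCB from -0.032 to 0.17 and ATF4 from -0.0060 to 0.16. With median scaling, DNAJC8 was at -0.0050 and HSCB at -0.026. With TMM-like scaling, DNAJC8 was at -0.022, HSCB at -0.041 and ATF4 at -0.0082. After quantile normalization, DNAJC12 was at 0.028 and HSCB at -0.014.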
